A study of Mus musculus with 4 samples.

Results

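The BCL2 family genes described here were the pro-survival genes Bcl2, Bcl2l1 and Mcl1, the effectors Bax and Bak1, and the BH3-only genes Bad, Bid, Bbc3, Pmaip1 and Bcl2l11. They were chosen by name, as every probe of the array annotated to 1 of these symbols, and made up 19 of 56605 gene probes. The samples were 4 one-color Agilent arrays of pancreatic islet cells from C57BL/6 mice, aged 60 weeks and labelled male, which were littermates. Cells of 2 samples received MOTS-c, a peptide encoded in the mitochondrial 12S rRNA gene (replicates 2 and 3), and cells of the other 2 samples received a scrambled peptide as the control (replicates 1 and 2), in both groups at 10 μM for 24 h after the islets had been dispersed into single cells. Every cell type of the islet was on the array together, so a lower share of a cell type and less RNA per cell cannot be told apart. The study examined whether MOTS-c alters senescence of islet cells, and the comparison below gives the survival and death genes of that experiment.

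BCL2 family proteins control the permeability of the outer mitochondrial membrane. BAX and BAK form the pores through which cytochrome c leaves, after which the apoptosome activates caspases. BCL2, BCL-XL (from Bcl2l1) and MCL1 hold the pore formers and the BH3-only proteins in check, and BH3-only proteins such as PUMA (Bbc3), NOXA (Pmaip1) and BIM (Bcl2l11) report stress by binding to them. In β-cells, BIM and PUMA have been linked to death under endoplasmic reticulum stress and cytokines, and senescent cells of many types depend on BCL2 and BCL-XL, which are targets of senolytic drugs.

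The direction of the values differed within the BH3-only group, where Bbc3 was lower and the brightest probe of Bcl2l11 was higher in both MOTS-c samples, while both probes of the effector Bax were lower. The promoters of these 3 genes are therefore shown, as the 250 bases before a transcription start in RefSeq (build GRCm38.p6), in lower case with matches to 2 motifs in capitals. The motifs were GTAAACA, the core bound by FOXO factors, and CACGTG, the E-box, each searched on both strands.

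Bbc3, chr7:16310011-16310260, plus strand: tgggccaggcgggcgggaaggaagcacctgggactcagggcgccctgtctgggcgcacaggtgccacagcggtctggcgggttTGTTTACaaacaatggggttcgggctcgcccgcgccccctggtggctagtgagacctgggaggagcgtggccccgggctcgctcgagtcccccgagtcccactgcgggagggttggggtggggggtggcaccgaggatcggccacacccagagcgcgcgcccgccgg
Bcl2l11, chr2:128125788-128126037, plus strand: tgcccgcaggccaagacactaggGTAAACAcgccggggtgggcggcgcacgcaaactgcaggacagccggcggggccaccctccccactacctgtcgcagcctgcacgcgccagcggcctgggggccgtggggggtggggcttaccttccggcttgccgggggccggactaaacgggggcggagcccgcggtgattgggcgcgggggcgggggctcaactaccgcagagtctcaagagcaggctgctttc
Bax, chr7:45466899-45467148, minus strand: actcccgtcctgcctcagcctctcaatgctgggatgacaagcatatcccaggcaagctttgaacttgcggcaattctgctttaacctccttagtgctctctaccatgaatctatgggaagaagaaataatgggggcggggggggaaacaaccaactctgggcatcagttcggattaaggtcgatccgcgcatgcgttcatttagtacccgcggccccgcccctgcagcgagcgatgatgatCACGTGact

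Windows of 9 of the 10 genes were read, 15 windows in all, since some genes have several starts. The FOXO core lay in 2 of them, the Bbc3 window shown, at 167 to 161 bases before the start, and the Bcl2l11 window shown, at 227 to 221 bases before it. It was found in 3.17% of 32851 windows of this length over all genes. The other 2 windows of Bbc3 and the other window of Bcl2l11 held no match to it. The E-box lay in the Bax window, 9 to 4 bases before the start, and in another Bbc3 window, with 6.02% of all windows holding it. A match to the p53 half-site, searched with its degenerate positions, lay in the Bax window at 201 to 192 bases before the start and in no other window read, against 7.13% of all windows. The half-site of cyclic AMP response elements, TGACG on either strand, lay in the Bcl2 window and in another Bbc3 window and in 17.8% of all windows. No matches overlapped each other. Thus a window of Bbc3 and a window of Bcl2l11 carried the same short match, which is a description of the sequence and no evidence of binding. Bbc3 was lower with MOTS-c and the brightest probe of Bcl2l11 was higher, but the probes of Bcl2l11 differed in direction.

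Each of the 19 probes passed the scanner's test for a signal well above background on every array. Values below are log2 signals after quantile normalization, and a change is the mean of the 2 MOTS-c samples minus the mean of the 2 scrambled samples, with its standard error from limma. Signals of different probes depend on the probe as well as on the transcript, so no gene is ranked above another by its signal.

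At an adjusted p under 0.05, limma called 0 of the 19 probes, as it did 0 of 35087 tested probes (0%), and the smallest adjusted p among the 19 was 0.566. At an unadjusted p under 0.05 it called 1 of the 19 probes, Bbc3, a share of 5.26%, and 7.85% of all tested probes. The 2 groups of samples did not overlap for 8 probes. Of these, 2 probes (10.5%) were higher in both MOTS-c samples, against 19.4% of all probes, and 6 probes (31.6%) were lower, against 18.6%. The direction was lower for 15 probes and higher for 4, and the median change was -0.13, where the median over all tested probes was 0.01. Bcl2l1 alone gave 5 of the 19 probes, and over the 10 genes at their brightest probe 7 were lower, 3 were higher and the median change was -0.02. No probe changed by 1.5-fold or more, which 5.24% of all probes did. With 2 samples per group, the smallest p that an exact two-sided permutation test of a single probe allows is 0.333, so groups that do not overlap cannot reach 0.05 by that test.

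**Figure D1:**
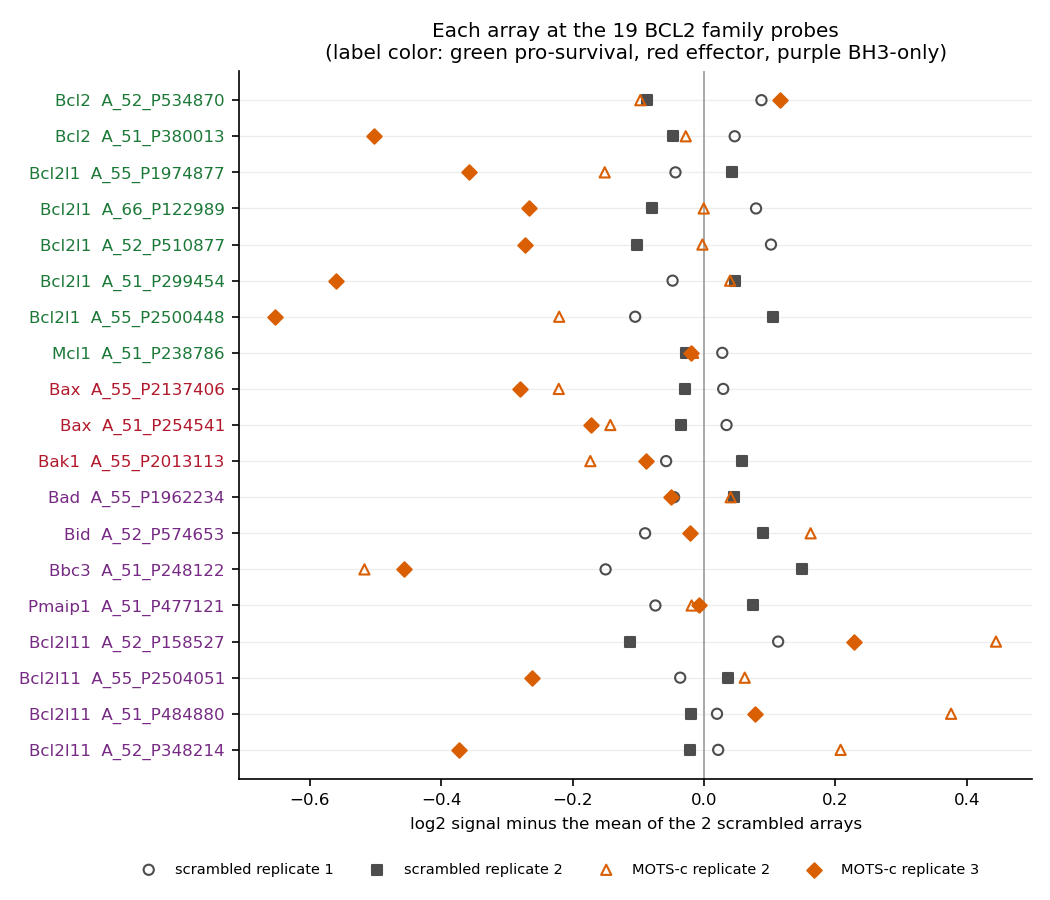
The log2 signal of each of the 4 arrays at the 19 BCL2 family probes (rows), as the difference from the mean of the 2 scrambled arrays (x axis). Both MOTS-c samples lie left of both scrambled samples at Bbc3, Bax, Bak1 and 2 Bcl2l1 probes and right of them at 2 Bcl2l11 probes, and MOTS-c replicate 3 is the lowest of the 4 arrays at 11 probes.

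Of the pro-survival genes, Mcl1 gave nearly the same value on every array. Its probe read 13.61 and 13.55 in the scrambled samples and 13.56 in both MOTS-c samples, a change of -0.02 (SE 0.12). The 95% interval of this change ran from -0.33 to 0.29, or 0.795-fold to 1.23-fold. Mcl1 encodes a short-lived protein, and protein levels were not measured on these arrays.

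Bcl2 was measured by a pair of probes annotated to different transcripts of the gene. At probe A_52_P534870, the scrambled samples read 11.05 and 10.88 and the MOTS-c samples 10.87 and 11.08, a change of 0.01 (SE 0.15). At probe A_51_P380013, the scrambled samples read 10.13 and 10.03 and the MOTS-c samples 10.05 and 9.58, a change of -0.26 (SE 0.20). The groups overlapped at both probes. At the second, MOTS-c replicate 2 lay between the scrambled samples and only replicate 3 lay apart from the other 3 samples, and without replicate 3 the change was -0.03.

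Bcl2l1, which gives rise to BCL-XL and the pro-apoptotic splice form BCL-XS, had 5 probes, all of them lower on average with MOTS-c. The brightest, A_55_P1974877, read 13.91 and 13.99 in the scrambled samples and 13.80 and 13.59 in the MOTS-c samples, a change of -0.25 (SE 0.14, 95% interval -0.62 to 0.11), and the groups did not overlap. The dimmest, A_55_P2500448, read 5.25 and 5.46 against 5.13 and 4.70, a change of -0.44 (SE 0.20), also without overlap, at a signal of only 1.43 to 2.10 times its local background. The other 3 probes changed by -0.26 to -0.13, and their groups overlapped. MOTS-c replicate 3 was the lowest array at all 5 probes. Without it, the changes of the brightest and the dimmest probe were -0.15 and -0.22, and those of the other 3 lay between -0.00 and 0.04. Adjusted p-values of the 5 probes were 0.691 to 0.874 by limma. Probes of 1 gene read the same RNA and are not replicates of each other.

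Among the effectors, the values were lower with MOTS-c at all 3 probes, and the groups did not overlap at any of them. Of all probes, 18.6% were lower without overlap. Bax, whose product inserts into the outer mitochondrial membrane on activation, read 14.39 and 14.33 in the scrambled samples and 14.14 and 14.08 in the MOTS-c samples at probe A_55_P2137406. The change was -0.25 (SE 0.12, 95% interval -0.57 to 0.07), or 0.841-fold. At the second Bax probe, A_51_P254541, the scrambled samples read 13.04 and 12.97 and the MOTS-c samples 12.86 and 12.83, a change of -0.16 (SE 0.12). The 2 MOTS-c samples were thus close to each other and below both controls at each Bax probe. Limma gave unadjusted p-values of 0.0961 and 0.251 and adjusted p-values of 0.701 and 0.801. The independent t-test named in the study's methods gave an unadjusted p of 0.0265 at the first Bax probe and 0.0519 at the second, and 6.59% of all probes had an unadjusted p under 0.05 by that test. The change at the first probe stayed between -0.28 and -0.22 when each array was left out in turn.

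Bak1, which encodes the second pore former, read 11.19 and 11.31 in the scrambled samples and 11.08 and 11.16 in the MOTS-c samples. The change was -0.13 (SE 0.13), with an adjusted p of 0.844 by limma. Both MOTS-c values lay below both controls, but by a margin of only a few hundredths between the nearest pair, and 53.3% of all probes changed by more in either direction.

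**Figure D2:**
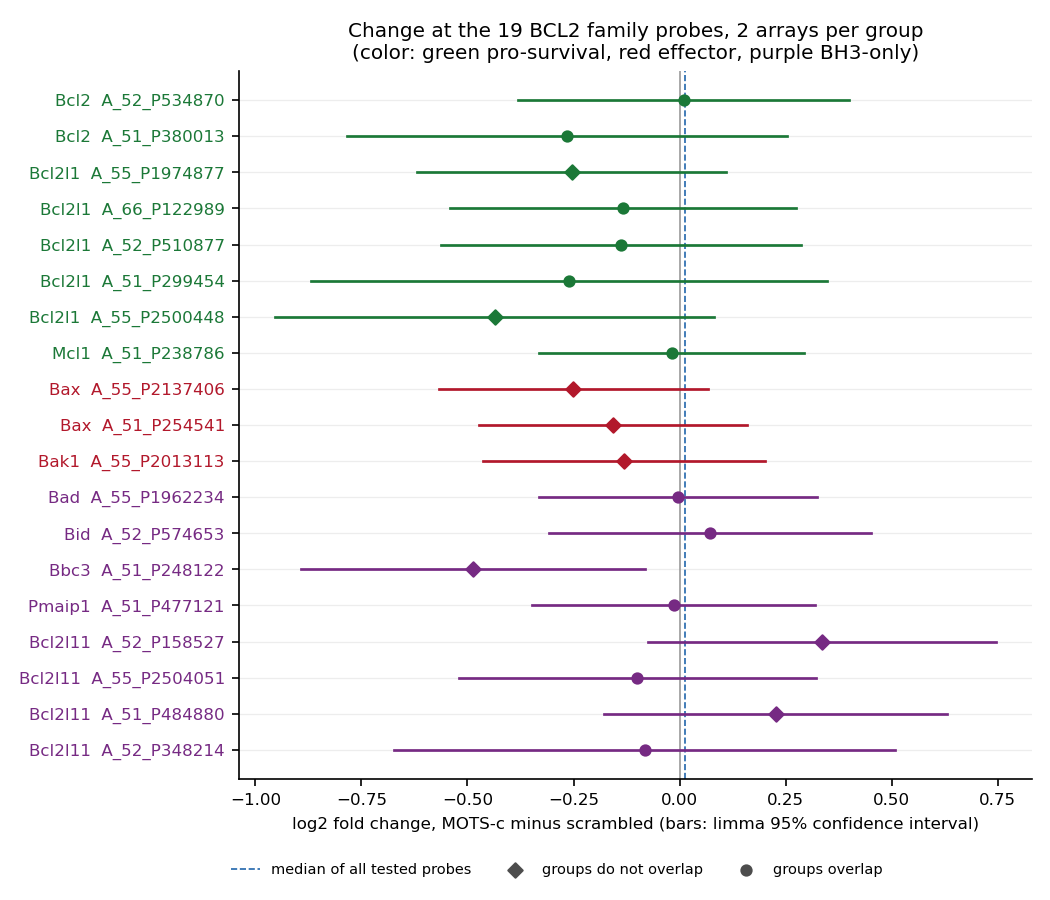
The log2 change with MOTS-c at the 19 BCL2 family probes (points) with the 95% confidence interval of limma (bars), 2 arrays per group, diamonds where the groups do not overlap, and a dashed line at the median of all tested probes (0.01). The interval leaves out 0 only at Bbc3 (-0.89 to -0.08).

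The BH3-only genes did not move together. Their 8 probes had a median change of -0.01, with 3 higher and 5 lower, while that of the 8 pro-survival probes was -0.20 and that of the 3 effector probes -0.16. The pro-survival value counts Bcl2l1 5 times, and by gene, at the brightest probe, the medians were -0.02 for the 3 pro-survival genes, -0.19 for the 2 effectors and -0.00 for the 5 BH3-only genes. Bbc3 and Bcl2l11 marked the ends of the range, and Bad, Bid and Pmaip1 lay near 0.

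Bbc3, whose product PUMA binds all pro-survival proteins and is a textbook target of p53, had the lowest change of the 19 probes. The scrambled samples read 11.05 and 11.35 and the MOTS-c samples 10.69 and 10.75, so that both MOTS-c samples lay below both controls and closer to each other than the controls were. The change was -0.49 (SE 0.15), or 0.714-fold with a 95% interval of 0.539-fold to 0.945-fold. Limma gave an unadjusted p of 0.0279 and an adjusted p of 0.566, and the methods' t-test an unadjusted p of 0.0859. A change at least as large was found at 8.28% of all tested probes. Leaving out each array in turn gave changes of -0.64 to -0.34. The unadjusted p stayed under 0.05 without scrambled replicate 1 (0.0275) and not without any of the other 3 arrays. Bbc3 is followed here through 1 probe.

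Bcl2l11 (BIM), which also binds all pro-survival proteins and can activate BAX directly, had 4 probes that differed in direction. At the brightest probe, A_52_P158527, the scrambled samples read 12.15 and 11.93 and the MOTS-c samples 12.48 and 12.27, a change of 0.34 (SE 0.16, 95% interval -0.07 to 0.75), or 1.26-fold. At A_51_P484880, which is annotated to the same transcript, the scrambled samples read 8.34 and 8.30 and the MOTS-c samples 8.70 and 8.40, a change of 0.23 (SE 0.15). The groups did not overlap at these probes, and MOTS-c replicate 2 was the higher of the treated samples at each. The other 2 probes, A_55_P2504051 and A_52_P348214, are annotated to another transcript of Bcl2l11. They read 8.71 and 8.78 against 8.80 and 8.48, a change of -0.10 (SE 0.16), and 5.60 and 5.56 against 5.79 and 5.21, a change of -0.08 (SE 0.22). At both of these probes, MOTS-c replicate 2 was the highest array and replicate 3 the lowest. The lower means at these 2 probes therefore rested on MOTS-c replicate 3. Without it, all 4 probes were higher, by 0.45, 0.38, 0.06 and 0.21 in the order given. Without MOTS-c replicate 2, the changes were 0.23, 0.08, -0.26 and -0.37. The first pair thus stayed above the second with either MOTS-c sample left out. The adjusted p-values by limma were 0.694, 0.778, 0.919 and 0.954.

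Bad, Bid and Pmaip1 each had 1 probe, and the groups overlapped at each. Bad, a sensitizer held in the cytosol by 14-3-3 proteins when it is phosphorylated, read 13.76 and 13.85 in the scrambled samples and 13.85 and 13.76 in the MOTS-c samples. Bid, which caspase 8 cleaves into its active form, read 8.57 and 8.75 against 8.82 and 8.63, a change of 0.07 (SE 0.14). Pmaip1, which encodes NOXA, a partner of MCL1 and another p53 target, read 7.18 and 7.33 against 7.24 and 7.25, a change of -0.01 (SE 0.13). The 95% intervals of these 3 changes lay within -0.35 and 0.45. Thus Bbc3 was lower with MOTS-c, where Pmaip1, which p53 also controls, showed values inside the control range. The difference between the 2 genes was not tested.

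The 2 MOTS-c samples differed from each other at these genes by about as much as over all probes, while the 2 scrambled samples differed by less. MOTS-c replicate 3 was the lowest of the 4 arrays at 11 of the 19 probes (57.9%), against 33.3% of all probes, and the highest at 1 probe (5.26%), against 28.4%. The median absolute difference over the 19 probes was 0.21 between the 2 MOTS-c samples and 0.10 between the 2 scrambled samples, where it was 0.19 and 0.16 over all probes. MOTS-c replicate 2 differed from the scrambled samples by 0.12 and 0.10, and replicate 3 by 0.22 and 0.20. Over all probes, the medians ranged from 0.16 to 0.24 among the pairs of arrays. Without MOTS-c replicate 3, the count of probes with an unadjusted p under 0.05 was 0, against 6.07% of all probes, and 5 probes lay above and 7 below the control samples, against 36.0% and 30.6% of all probes. Without MOTS-c replicate 2, 3 of the 19 probes had an unadjusted p under 0.05, as did 13.0% of all probes. They were A_51_P380013 of Bcl2 and A_51_P299454 and A_55_P2500448 of Bcl2l1, and 13 probes lay below the controls, against 38.3% of all probes. Bax, Bak1, Bbc3 and A_55_P1974877 and A_55_P2500448 of Bcl2l1 lay below both controls in each MOTS-c sample alone. A_52_P158527 and A_51_P484880 of Bcl2l11 lay above both controls in each.

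**Figure D3:**
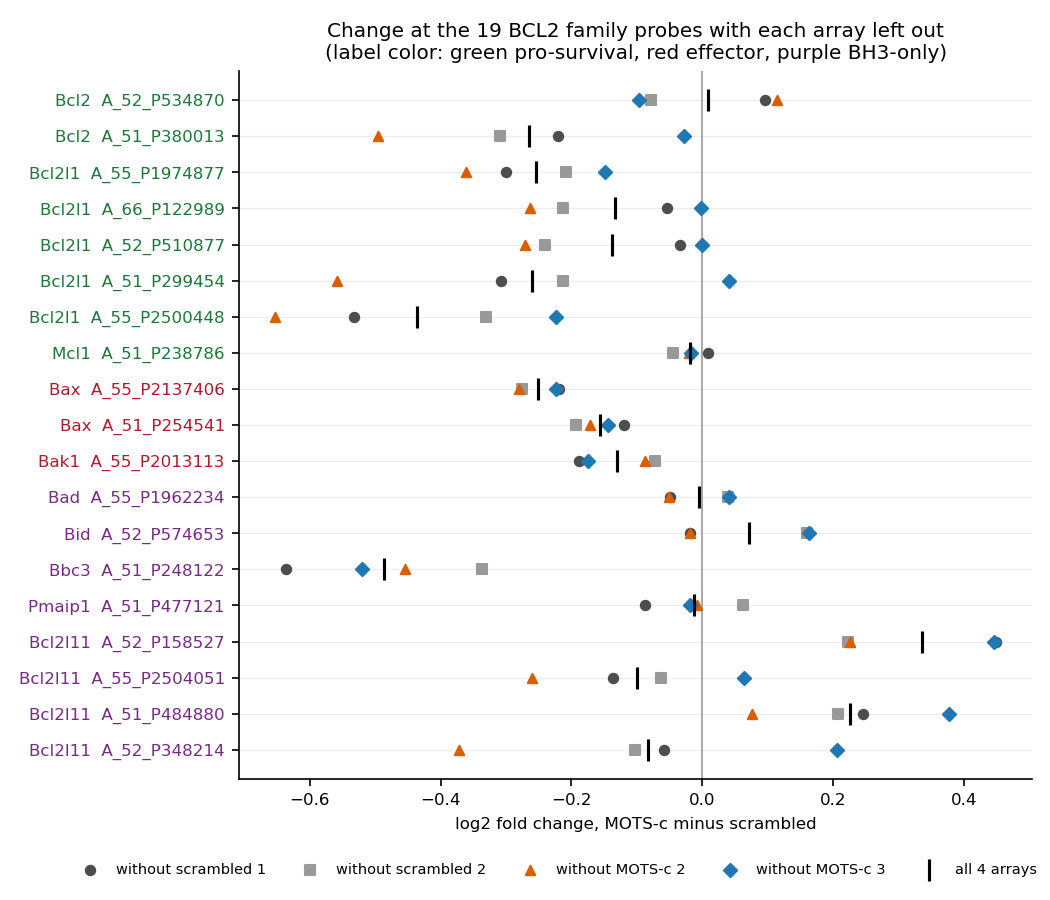
The log2 change with MOTS-c at the 19 BCL2 family probes with all 4 arrays (bars) and with each array left out (symbols). The values without MOTS-c replicate 2 and without replicate 3 lie far apart for Bcl2 A_51_P380013 (-0.50 and -0.03) and close together for Bax A_55_P2137406 (-0.28 and -0.22).

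The remaining genes of the family, followed through their brightest probe, were listed by name as 16 genes, of which 14 had a probe and 11 had a tested one. Bcl2l10 and the 4 Bcl2a1 genes, which are near-identical copies, were not tested. Of the 11, limma called 1 at an unadjusted p under 0.05 (lower), against 7.85% of all tested probes, and 0 at an adjusted p under 0.05. Without overlap, 5 were lower and 1 was higher, against 18.6% and 19.4% of all probes, and the median change was -0.22, where the median of all tested probes was 0.01. Bmf, a BH3-only gene whose product is tied to the actin cytoskeleton, read 8.42 and 8.51 in the scrambled samples and 7.93 and 7.07 in the MOTS-c samples, a change of -0.96 (SE 0.31). Limma gave it an unadjusted p of 0.0283 and an adjusted p of 0.566. Both MOTS-c samples were below the controls but differed widely from each other (SD 0.60, against 0.07 in the controls), and the other probe of Bmf changed by 0.21, in the opposite direction. Bcl2l14 read 8.18 and 8.49 against 7.96 and 7.13, a change of -0.79 (SE 0.31), again with replicate 3 far below replicate 2.

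Bok, an effector related to Bax and Bak1, read 10.61 and 10.80 against 10.45 in both MOTS-c samples, a change of -0.26 (SE 0.13). With Bax and Bak1, all 3 effectors of the family were thus lower in both MOTS-c samples, as were 18.6% of all probes. None of the 3 passed an unadjusted p of 0.05 by limma. The BH3-only genes Bik and Hrk, which are dim here, changed by -0.41 (SE 0.25) and -0.38 (SE 0.25), and without MOTS-c replicate 3 by -0.08 and -0.07. Bcl2l2 (BCL-W, pro-survival) changed by -0.22 (SE 0.16) without overlap. Bnip3, a mitophagy receptor related to the BH3-only genes, was higher without overlap, by 0.14 (SE 0.12), and its relative Bnip3l changed by 0.14 (SE 0.15) with overlap. Bcl2l15, Bcl2l13 and Bcl2l12 changed by -0.22, -0.07 and 0.05 with overlap.

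Downstream of the mitochondria, 22 genes of the apoptosome, the caspases, their inhibitors (IAPs) and the factors released with cytochrome c were listed, and 21 were tested (not Birc3). Limma called 2 of them at an unadjusted p under 0.05, both higher, against 7.85% of all tested probes, and 0 at an adjusted p under 0.05. The direction was higher for 16 genes and lower for 5, with a median change of 0.06, and 8 genes were higher and 2 lower without overlap, against 19.4% and 18.6% of all probes. Casp6, an executioner caspase, read 7.74 and 7.38 in the scrambled samples and 8.48 and 8.09 in the MOTS-c samples, a change of 0.73 (SE 0.21, unadjusted p 0.0201, adjusted p 0.544 by limma). Both MOTS-c samples lay above both controls. Dffa, the inhibitor and chaperone of the caspase-activated DNase, read 8.34 and 8.48 against 9.05 and 8.70, a change of 0.46 (SE 0.17, unadjusted p 0.0454, adjusted p 0.623 by limma), and its other probe changed by 0.34.

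Endog, a mitochondrial nuclease, changed by 0.33 (SE 0.13), Casp8, which starts the death receptor pathway, by 0.31 (SE 0.15), and Apaf1, the scaffold of the apoptosome, by 0.30 (SE 0.12). All 3 were higher in both MOTS-c samples without overlap, but the other probe of Apaf1 changed by -0.02. Within the list, all 5 caspase genes placed in the caspase group had a change above 0 (0.04 to 0.73) at their brightest probe, whereas Casp9, the caspase placed with the apoptosome, changed by -0.17 at its brightest probe and by 0.20 at the other.

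**Figure D4:**
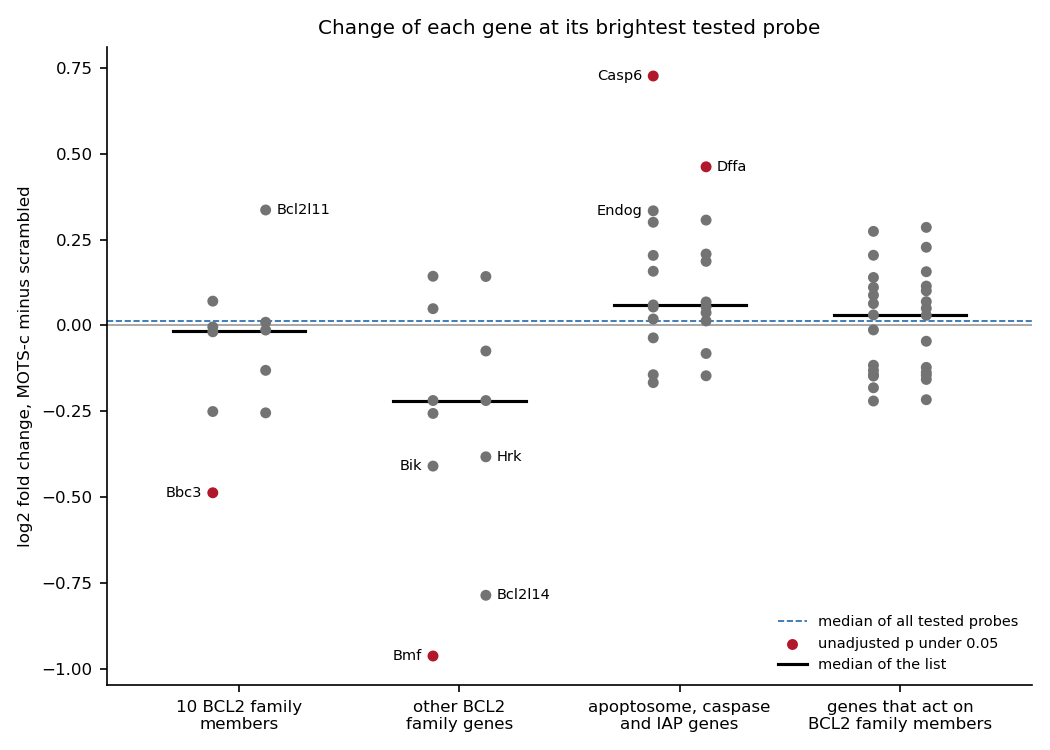
The log2 change with MOTS-c of each gene at its brightest tested probe (points), for the 10 BCL2 family genes and 3 lists around them, with the median of each list (bars) and of all tested probes (dashed line, 0.01). Red points have an unadjusted p under 0.05 by limma (Bbc3, Bmf, Casp6 and Dffa), and the medians of the lists are -0.02, -0.22, 0.06 and 0.03 from left to right.

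Among 29 genes that control BCL2 family members, such as their transcription factors, the ubiquitin ligases of MCL1, kinases and 14-3-3 proteins, 28 were tested (not Trim17). Limma called 0 of them at an unadjusted p under 0.05 and 0 at an adjusted p under 0.05, while the methods' t-test called 3 at an unadjusted p under 0.05, against 6.59% of all probes. The median change was 0.03, and 5 genes were higher and 5 lower without overlap, close to the 19.4% and 18.6% of all probes. The 5 genes with the smallest p were Dynll2 (0.27, SE 0.13), which encodes the dynein light chain that binds BMF, the p53 regulator Mdm4 (0.20, SE 0.12), the kinase Pim2 (0.23, SE 0.14), the stress factor Atf4 (-0.22, SE 0.13) and the kinase Mapk8, or JNK1 (0.29, SE 0.20). The first 3 were higher and Atf4 lower in both MOTS-c samples, and the groups overlapped for Mapk8. Trp53, the gene of p53, read 10.07 and 10.15 in the scrambled samples and 10.11 and 9.74 in the MOTS-c samples, a change of -0.18 (SE 0.17) that rested on replicate 3. Foxo3 and Foxo1, which encode factors that bind the FOXO core printed in the promoters above, changed by -0.22 (SE 0.16) with overlap and by 0.11 (SE 0.12) without it, and the other probe of Foxo3 changed by 0.22.

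The makeup of the samples was read from 59 marker genes, of which 37 were tested. Limma called 7 of them at an unadjusted p under 0.05 (2 higher and 5 lower), against 7.85% of all tested probes, and 0 at an adjusted p under 0.05. Of the 7 tested β-cell genes (of 8), 3 were higher and 3 lower without overlap, against 19.4% and 18.6% of all probes. Mafa (0.16), Nkx6-1 (0.12) and Iapp (0.07) were higher. G6pc2 (-0.19), Ins1 (-0.04) and Slc2a2 (-1.33) were lower. Slc2a2 read 5.23 and 5.26 in the scrambled samples and 3.81 and 4.02 in the MOTS-c samples. Limma gave it an unadjusted p of 0.000277 and an adjusted p of 0.474. Its signal was dim, well above background on only 3 of the 4 arrays. Ins1, Ins2 and Iapp differed by less than 0.10 between the group means. Quantile normalization sets values by rank, and Ins2 read 18.54 in scrambled replicate 1 and both MOTS-c samples. Ins1 read 18.13 in both scrambled samples. The near-equal values of these 2 bright probes therefore say little about the makeup. The 3 tested α-cell markers (of 4) were higher without overlap, as were 19.4% of all probes. Their summed intensities were 48300 and 50000 in the scrambled and 52000 and 54200 in the MOTS-c samples. Cela1 (acinar, -0.76), C1qa (macrophage, -0.67) and Pdgfra (-1.05, the only tested marker among 6 mesenchymal ones) were lower without overlap, but other markers of the same cells were not: of the 4 tested acinar markers (of 7), Ctrb1 was higher without overlap (0.33) and the other 2 overlapped, and of the 4 tested macrophage markers (of 5) the other 3 overlapped (Cd68 0.16, Itgam 0.01, Csf1r -0.21). B-cell markers were not above background (0 of 3). The 6 markers of dividing cells were all well above background on every array, and 0 of 28 readings of Y-linked probes were, although the label is male, while Xist read 23.7 to 33.5 times its local background over the 4 arrays. The part of these differences in the BCL2 family values was not tested. Spots well above background made up 61.6% to 65.0% of gene spots, and 0 gene spots were saturated.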

How the data were processed

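RNA of 4 islet cell samples was amplified, labelled with Cy3 and hybridized by the authors, and the deposited values are spot intensities from Feature Extraction, with background subtracted array by array but no scaling across arrays. A deposited value table holds the same intensities, rounded. Samples were grouped by their labels. The labels name 4 littermates, 2 per group, and do not tie each sample to a mouse, so p-values measure the spread between these samples, which may be in part technical.

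From the files, control spots (3671 per array) and outlier spots (96 to 131) were dropped. The log2 intensities of the remaining spots were averaged per probe, a probe was kept if 2 or more arrays showed it well above background (35087 probes, of which 22828 carried a symbol), and quantile normalization followed. MOTS-c was compared with scrambled in limma 3.58.1 (R 4.3.3), with Benjamini-Hochberg adjustment over all 35087 probes, 2 residual degrees of freedom and 2.64 added from the other probes. The steps were tested on simulated data. Symbols came from the RefSeq gene table of GRCm38.p6. All 10 members are described at every probe, and of the other lists all tested family genes or the 5 genes of smallest p, at their brightest probe. Foxo1, Foxo3, Trp53, Casp9, Xist and the marker genes given were named after their values were seen. The members and lists were chosen with earlier results of these data known. Alternatives were a 75th percentile shift, normexp with an offset of 50, the authors' value table, no filter, a filter on all 4 arrays, limma with a trend, the methods' t-test, each array left out and the mean over the probes of a gene. The precision is limited by 2 arrays per group. Some genes and sequences are not reported here.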

Additional observations from a re-analysis of the deposited data

How the results depend on the processing

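The count of BCL2 family probes at an adjusted p under 0.05 was 0 under every alternative run, with adjusted p-values of Bbc3 between 0.362 and 1. At an unadjusted p under 0.05, the count of 1 became 3 with normexp (with Bax and Bcl2l11), 2 without the filter on dim probes (with Bax), 4 with a trend (with Bax, Bcl2l1 and Bcl2l11) and 0 to 3 with 1 array left out, where 8.87%, 8.18%, 8.39% and 4.55% to 13.0% of all probes passed. The methods' t-test also gave 1, Bax in place of Bbc3. With 1 array left out, 3 to 5 probes were higher and 7 to 13 lower without overlap, against 34.5% to 37.5% and 29.3% to 38.3% of all probes. Of the other BCL2 family genes, 2 passed with the 75th percentile shift, the filter on all 4 arrays or a trend, 3 with normexp, 0 without a filter or by the t-test, and 0 to 4 with 1 array left out. Of the apoptosome, caspase and IAP genes, 1 passed with normexp, 4 without a filter, 4 by the t-test, 5 with a trend and 0 to 2 with 1 array left out. Of the genes that act on BCL2 family members, 1 passed with normexp, 1 without a filter, 3 by the t-test and 2 with a trend. Beside the shares given above, 7.52% of all probes passed with the 75th percentile shift, 7.89% with the filter on all 4 arrays and 6.59% by the t-test. The cause of these differences was not tested.

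Bbc3 (-0.64 to -0.34), both Bax probes, Bak1, Bcl2 A_51_P380013, 4 of the 5 Bcl2l1 probes and Bcl2l11 A_52_P158527 and A_51_P484880 kept their direction in all 11 other settings. With 1 array left out, the change turned at Mcl1 (-0.04 to 0.01), Bid (-0.02 to 0.16), Bcl2 A_52_P534870 (-0.10 to 0.11), Bad (-0.05 to 0.04), Pmaip1 (-0.09 to 0.06), Bcl2l1 A_51_P299454 (-0.56 to 0.04), Bcl2l11 A_55_P2504051 (-0.26 to 0.06) and Bcl2l11 A_52_P348214 (-0.37 to 0.21), and the mean over both Bcl2 probes was -0.13. No paired analysis was run, since the labels do not tie each sample to a mouse. Dim probes, such as Bcl2l1 A_55_P2500448, limit the reading of low signals.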
